A study of Mus musculus with 12 samples.

Results

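A group of 10 genes that set the calcium traffic of the secretory pathway were followed across 4 groups of mouse fibroblasts. They were the rows of the deposited count table whose symbols are Atp2a1, Atp2a2, Atp2a3, Atp2c1, Itpr1, Itpr2, Itpr3, Stim1, Stim2 and Orai1, which makes 10 of 32544 genes. The set was chosen by the level of Atp2a3, which was much higher after vesicle exposure than in untreated cells, so the contrasts with untreated cells are given as a description (levels, fold changes and counts of calls), with nothing read from them. All 10 genes passed the filter on low counts, Atp2a3 through its EV libraries alone, which left 14279 genes for testing.

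The cells were 3T3, an immortalised mouse fibroblast line, labelled as such in all 12 libraries. One group was untreated. The other groups received extracellular vesicles (EVs), membrane-bound particles shed by cells, for 24 h. All EVs came from MDA-MB-468, a human triple-negative breast cancer cell line: a control line (shCon), a line with CRIPTO knocked down (shCr) and a line overexpressing CRIPTO (CrOE). This membrane-anchored protein is found on embryonic and tumour cells, and its level in the donors was not measured in these libraries. Each group had 3 libraries. The labels do not say that these came from separate cultures, so p-values measure only the spread between these samples, which may be technical.

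Library totals ran from 25960054 to 37774020 counts. The CrOE libraries stood apart from all others, at 109 to 113 on a first principal component that held 73.7% of the variance, against -41.8 to -29.7 for the other 9. Their columns are headed with the protein name alone and were assigned to CrOE because every other group's columns carry that group's name. Fibroblast genes were expressed in every group, although the summed level of 10 fibroblast markers was 8470.0 to 8847 CPM (counts per 1000000 of the scaled library total) in CrOE libraries against 15102 to 24766 CPM elsewhere. Lum, a collagen-binding proteoglycan, was at or under 3 counts in each CrOE library. The part of this shift in the results for CrOE EVs was not tested.

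The endoplasmic reticulum (ER) is the main calcium store of most cells. Pumps of the SERCA family, encoded by Atp2a1, Atp2a2 and Atp2a3, load it with calcium using ATP. Receptors for inositol trisphosphate (IP3), encoded by Itpr1, Itpr2 and Itpr3, let calcium out when phospholipase C makes IP3. STIM proteins sense the fall of luminal calcium and open Orai channels in the plasma membrane, a route called store-operated calcium entry. Atp2c1 encodes a calcium and manganese pump of the Golgi. In fibroblasts Atp2a2 is the housekeeping SERCA gene, Atp2a1 is the fast muscle form, and Atp2a3 is best known from blood, endothelial and secretory epithelial cells.

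The 250 bases before the annotated start are shown for 2 genes that were higher and 2 that were lower with CrOE EVs than with either other kind of EV, so that the promoters of genes that moved in opposite directions can be set side by side. They are RefSeq sequences of build GRCm38.p6: Atp2a3 at chr11:72960919-72961168 (plus strand), Itpr2 at chr6:146502224-146502473 (minus strand), Stim1 at chr7:102267569-102267818 (plus strand) and Stim2 at chr5:53998273-53998522 (plus strand). Each is written 5′ to 3′ on the gene's strand. Capitals mark 3 motifs, read on both strands: the GC box GGGCGG, the CCAAT box CCAAT and the ETS core CCGGAA.
Atp2a3: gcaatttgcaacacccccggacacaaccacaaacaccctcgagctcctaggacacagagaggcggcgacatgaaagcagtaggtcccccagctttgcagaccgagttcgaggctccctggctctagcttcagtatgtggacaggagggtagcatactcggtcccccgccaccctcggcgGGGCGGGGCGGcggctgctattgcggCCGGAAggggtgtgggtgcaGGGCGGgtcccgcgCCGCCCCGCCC
Itpr2: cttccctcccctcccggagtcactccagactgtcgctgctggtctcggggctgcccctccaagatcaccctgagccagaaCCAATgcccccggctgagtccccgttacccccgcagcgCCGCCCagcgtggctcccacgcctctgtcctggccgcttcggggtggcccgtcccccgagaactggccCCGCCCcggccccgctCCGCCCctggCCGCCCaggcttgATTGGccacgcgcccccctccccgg
Stim1: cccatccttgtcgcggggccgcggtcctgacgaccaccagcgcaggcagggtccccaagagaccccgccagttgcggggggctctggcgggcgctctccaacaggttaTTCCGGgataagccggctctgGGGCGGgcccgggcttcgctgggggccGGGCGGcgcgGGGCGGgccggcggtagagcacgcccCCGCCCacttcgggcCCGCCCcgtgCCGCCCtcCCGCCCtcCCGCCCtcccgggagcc
Stim2: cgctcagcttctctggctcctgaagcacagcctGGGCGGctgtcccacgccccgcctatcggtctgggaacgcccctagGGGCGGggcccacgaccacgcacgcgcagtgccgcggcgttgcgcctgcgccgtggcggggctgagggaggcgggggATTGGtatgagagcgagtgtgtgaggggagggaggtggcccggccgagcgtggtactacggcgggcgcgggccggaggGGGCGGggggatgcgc
Atp2a3 had 5 GC boxes and 1 ETS core in this window, and Stim1 had 8 GC boxes and 1 ETS core. Itpr2 had 4 GC boxes with 2 CCAAT boxes, and Stim2 had 3 GC boxes with 1 CCAAT box. Thus GC boxes were present in the windows of genes that moved either way. Of 32851 RefSeq promoter windows of this length, 32.7% held a GC box, 33.8% a CCAAT box and 12% an ETS core. No matched gene of the set had, in this window, the AP-1 site TGAGTCA (held by 4.46% of all windows), the cAMP response element TGACGTCA (1.55%) or the ER stress response element (0.113%), whose letters include a CCAAT box. Windows were found for 8 of the 10 genes. Atp2a2 and Itpr1 had none, so these statements on motifs do not cover them.

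Atp2a3, which encodes SERCA3, was barely present in untreated cells and was higher in every EV group. The untreated libraries held 3, 1 and 5 counts of it, or 0.110, 0.0381 and 0.184 CPM. After shCon EVs the libraries held 2.65, 2.86 and 2.67 CPM. After shCr EVs they held 1.09, 1.28 and 1.56 CPM, and after CrOE EVs 27.2, 27.5 and 28.5 CPM. No 2 groups overlapped: the order was untreated, shCr, shCon and CrOE. From summed counts, the ratio to untreated cells was 24.5 for shCon EVs (95% interval 12.7 to 54.2), 12 for shCr EVs (6.12 to 26.8) and 249 for CrOE EVs (131 to 545). These exact binomial intervals cover counting error only, and they are wide because the untreated libraries summed to 9 counts. They are no test of a rise, since the level of Atp2a3 chose the set.

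Between EV groups, Atp2a3 differed in all 3 comparisons. It was lower with shCr than with shCon EVs by a log2 fold change of -1.03 (SE 0.15, edgeR adjusted p = 0.00119). It was higher with CrOE EVs by 3.35 against shCon EVs (SE 0.12, adjusted p = 6.2e-11) and by 4.38 against shCr EVs (SE 0.13, adjusted p = 9.4e-12). Each of these calls held when any 1 of the 12 libraries was left out, with the adjusted p at most 0.00856, 3.7e-09 and 4.6e-10 in that order. Requiring 10 counts in every library removed Atp2a3 from the test.

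Markers of cell types known for Atp2a3 were measured beside it. The summed level of 8 endothelial markers was 2.46 to 3.37 CPM in untreated, 5.71 to 6.34 in shCon, 4.51 to 5.80 in shCr and 17.7 to 20.4 in CrOE libraries. It was thus lowest and highest in the same groups as Atp2a3, while its shCr and shCon ranges overlapped. Most of this was Vwf, the von Willebrand factor gene, at 15 to 17.9 CPM in CrOE libraries. The angiopoietin receptor gene Tek was at 1.14 to 1.21 CPM in CrOE against 0.184 to 0.256 in untreated libraries, and Pecam1 at 0.571 to 0.727 against 0.147 to 0.419. Cdh5, the vascular cadherin gene, was at 0.159 to 0.233 against 0.0381 to 0.0736 CPM, and Kdr, a VEGF receptor gene, at 0.381 to 0.421 against 0.0762 to 0.184. Vwf, Tek and Pecam1 were higher in CrOE libraries than in all others, but Cdh5 and Kdr were not. Kdr was at 0.501 to 0.612 CPM in shCon and 0.545 to 1.01 in shCr libraries, above the CrOE libraries. Cdh5 in shCon libraries, at 0.0996 to 0.286 CPM, overlapped the CrOE range. Erg and Tie1 overlapped between CrOE and untreated libraries, and Emcn was at 0 in CrOE libraries. The 10 haematopoietic and platelet markers summed to 75.2 to 92.3 CPM in untreated, 116 to 122 in shCon, 167 to 217 in shCr and 19.9 to 24.3 in CrOE libraries. Lyz2, a lysozyme gene, led in the first 3 groups, at 41.4 to 186 CPM, and was at 1.12 to 1.40 in CrOE libraries, where the platelet gene Gp1bb led at 12.8 to 15.9. Over all libraries Gp1bb ranged from 11.3 to 23.4, Itga2b from 3.04 to 20.3 and Cd68 from 2.62 to 7.62 CPM. Ptprc, the pan-leukocyte gene, stayed at or under 0.250 CPM in all 12 libraries, and Cd3e and Adgre1 were at or under 3 counts in each. The 8 epithelial markers summed to 0.966 to 2.32 CPM over all libraries, and Epcam was at or under 3 counts in each. The part of these markers in the Atp2a3 result was not tested. In bulk RNA, a change in the number of cells of a type and a change in RNA per cell cannot be told apart.

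Atp2a2, which encodes SERCA2, carried nearly all SERCA message in each group. Its level was 398, 401 and 416 CPM in untreated libraries, 404, 407 and 400.3 CPM after shCon EVs, and 394, 402 and 388 CPM after shCr EVs. The CrOE libraries were at 1261, 1279 and 1194 CPM, above all 9 others. The log2 fold change was 1.62 against shCon EVs (SE 0.05, adjusted p = 6.2e-12), or 3.08-fold, and 1.66 against shCr EVs (adjusted p = 4.3e-12). The shCr and shCon libraries overlapped, with a log2 fold change of -0.03 (SE 0.04, adjusted p = 0.727). Atp2a2 shared 4.49% of its 31-base words with other genes, the gene model Gm30970 sharing the most, so a small part of its reads could be assigned elsewhere.

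Atp2a1 and Atp2c1 passed the test in none of the 3 EV comparisons. Atp2a1, encoding the muscle pump SERCA1, held 6 to 31 counts a library, with means of 0.360 ± 0.0902 CPM in untreated, 0.516 ± 0.102 in shCon, 0.591 ± 0.304 in shCr and 0.321 ± 0.189 in CrOE libraries (SD, n = 3 each). All 4 ranges overlapped. The 10 skeletal muscle markers summed to 1.55 to 3.82 CPM over all libraries. Actn2 led them at 0.388 to 1.80 CPM, and Myod1, Myog, Myh1 and Myh3 were at or under 3 counts throughout. Atp2c1, the Golgi pump gene, was at 68.0 ± 1.63 CPM in untreated, 62.2 ± 2.29 in shCon, 59.5 ± 6.68 in shCr and 62.6 ± 2.10 in CrOE libraries (SD, n = 3 each). Its wide spread after shCr EVs came from replicate 1 at 67.2 CPM, against 55.1 and 56.2 CPM. Without that library Atp2c1 was called lower with shCr than shCon EVs (log2 -0.17, adjusted p = 0.0496) and higher with CrOE than shCr EVs (0.17, adjusted p = 0.00567). Atp2a1 was called lower with CrOE than shCr EVs without shCr replicate 1 (log2 -1.23, adjusted p = 0.0133) or without CrOE replicate 3 (-1.48, adjusted p = 0.0204).

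**Figure D1:**
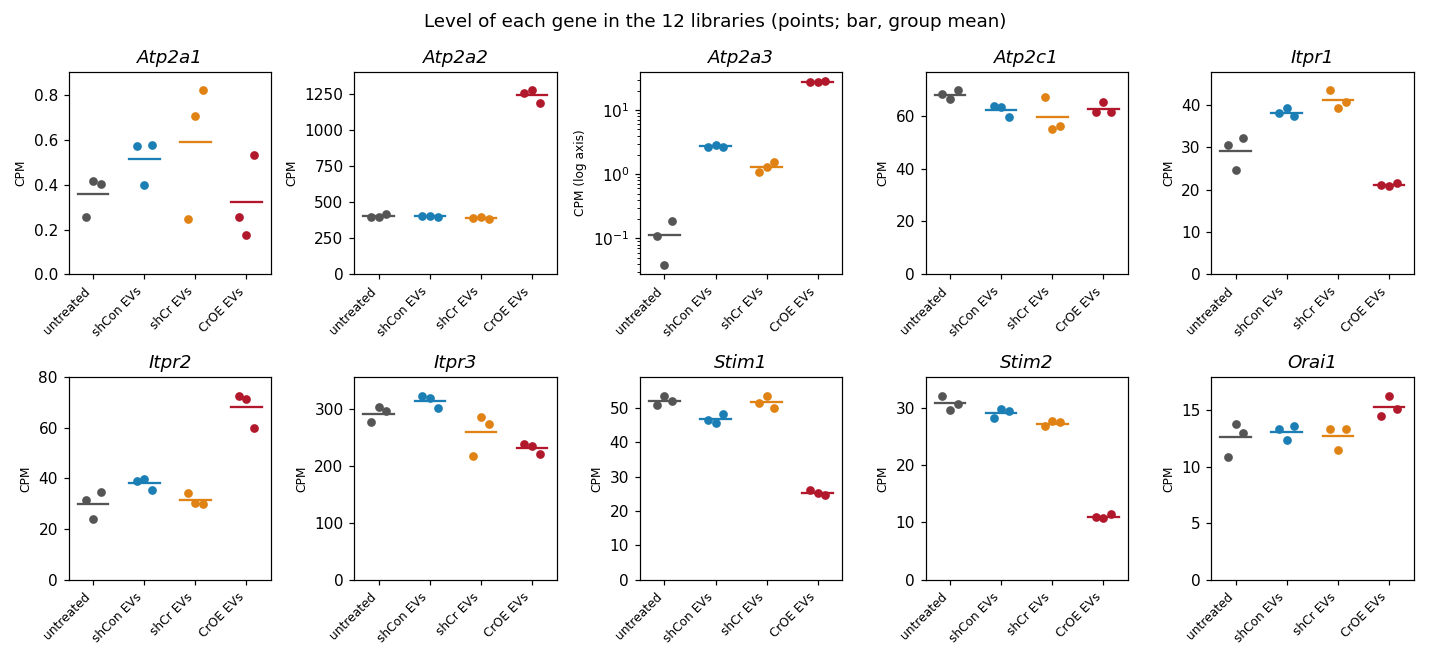
Level in CPM of each of the 10 genes (one panel each) in the 12 libraries, by group; points are libraries and bars are group means. Atp2a3 is on a log axis and the others start at 0. Atp2a3 climbs from 0.111 CPM untreated to 27.7 CPM after CrOE EVs, Atp2a2 and Itpr2 are highest after CrOE EVs, and Stim1, Stim2 and Itpr1 are lowest there.

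The 3 IP3 receptor genes moved in different directions with CrOE EVs: Itpr2 rose while Itpr1 and, against shCon EVs, Itpr3 fell. Itpr2, a receptor form of high IP3 sensitivity, was at 31.5, 24.0 and 34.5 CPM in untreated libraries, 39.0, 39.9 and 35.4 after shCon, 34.3, 30.4 and 30.0 after shCr, and 72.8, 71.4 and 60.0 after CrOE EVs. The CrOE libraries were above all others. Its log2 fold change was 0.84 against shCon EVs (SE 0.12, adjusted p = 2.6e-05) and 1.11 against shCr EVs (SE 0.12, adjusted p = 1.8e-06). With shCr against shCon EVs it was -0.27 (SE 0.12, adjusted p = 0.196), which did not pass although the libraries of those groups did not overlap.

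Itpr1, the receptor form best known from neurons, was at 30.6, 24.7 and 32.3 CPM in untreated libraries, 38.1, 39.3 and 37.4 after shCon, 43.5, 39.3 and 40.7 after shCr, and 21.1, 20.8 and 21.6 after CrOE EVs. Here the CrOE libraries were below all others. It fell with CrOE EVs by -0.85 against shCon (SE 0.09, adjusted p = 1.1e-06) and -0.96 against shCr EVs (SE 0.08, adjusted p = 3.1e-07). No call was made for shCr against shCon EVs, where the value was 0.11 (SE 0.08, adjusted p = 0.514).

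Itpr3, the receptor form linked to calcium transfer to mitochondria, was the most abundant of the 3. It was at 277, 303 and 297 CPM in untreated libraries, 324, 319 and 302 after shCon, 218, 286 and 274 after shCr, and 238, 235 and 221 after CrOE EVs. Replicate 1 of the shCr group was the lowest of all 12 libraries. Against shCon EVs, CrOE EVs gave a log2 fold change of -0.45 (SE 0.08, adjusted p = 0.000387). Against shCr EVs the value was -0.16 (SE 0.08, adjusted p = 0.0957), and it was called without shCr replicate 1 (-0.27, adjusted p = 0.000408). For shCr against shCon EVs it was -0.28 (SE 0.08, adjusted p = 0.0613). That difference was called without shCr replicate 2 (-0.36, adjusted p = 0.0331) and by DESeq2 (-0.29, adjusted p = 0.0213). Itpr3 overlaps the antisense gene Itpr3os. Opposite-strand genes also overlap Atp2a1 (Rabep2), Atp2a2 (Gm43361), Atp2c1 (Aste1), Itpr1 (Gm44040 and Gm44101) and Orai1 (Gm2479). Whether reads were counted by strand is not given in the sources used here, so the 2 strands cannot be told apart for these 6 genes.

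The store sensors fell together with CrOE EVs. Stim1, the main activator of Orai channels, was at 50.7, 53.6 and 51.9 CPM in untreated libraries, 46.4, 45.7 and 48.3 after shCon, 51.5, 53.4 and 50.1 after shCr, and 26.1, 25.3 and 24.5 after CrOE EVs. It fell by a log2 value of -0.89 against shCon EVs (SE 0.05, adjusted p = 4.9e-09) and -1.03 against shCr EVs (adjusted p = 9.5e-10). Stim2, which responds to smaller losses of store calcium, was at 32.1, 29.5 and 30.7 CPM in untreated libraries, 28.2, 29.7 and 29.4 after shCon, 26.8, 27.6 and 27.4 after shCr, and 10.9, 10.8 and 11.4 after CrOE EVs. It fell by -1.40 against shCon EVs (SE 0.06, adjusted p = 2.0e-10) and -1.30 against shCr EVs (adjusted p = 3.1e-10). For both sensors the CrOE libraries were below all 9 others. With shCr against shCon EVs the values were 0.14 for Stim1 (adjusted p = 0.106) and -0.09 for Stim2 (adjusted p = 0.349), neither of which passed.

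Orai1, the pore of store-operated entry, did not fall with its sensors. It was at 10.9, 13.8 and 13 CPM in untreated libraries, 13.3, 12.4 and 13.6 after shCon, 13.3, 11.5 and 13.3 after shCr, and 14.5, 16.3 and 15.1 after CrOE EVs. The CrOE libraries were the 3 highest. Against shCr EVs the log2 fold change was 0.27 (SE 0.10, adjusted p = 0.0217), a call lost without shCr replicate 2 (0.20, adjusted p = 0.0959) or CrOE replicate 2 (0.22, adjusted p = 0.0854). Against shCon EVs it was 0.22 (SE 0.10), with an adjusted p of 0.050 that did not pass. It was called without CrOE replicate 1 (0.27, adjusted p = 0.0468) and in a fit of those groups alone (0.19, adjusted p = 0.0236).

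Counted over the set with Atp2a3, whose level chose it, CrOE EVs differed from shCon EVs in 7 of 10 genes, 3 higher and 4 lower. In that comparison 72.6% of all tested genes were called, 36.5% higher and 36.1% lower. They differed from shCr EVs in 7 of 10, 4 higher and 3 lower, against 73.9% of all genes, 36.9% higher and 37.0% lower. Both counts are near the background. For shCr against shCon EVs, 1 of 10 was called, Atp2a3, which was lower, against 8.73% of all genes, 5.22% higher and 3.51% lower. Without Atp2a3, 6 of 9 genes were called for CrOE against shCon, 6 of 9 for CrOE against shCr and 0 of 9 for shCr against shCon EVs. An F-test over the 3 EV groups called 8 of 10, all but Atp2a1 and Atp2c1, against 75.1% of all genes. With each library left out in turn the F-test called 7 to 10 of the set and 10124 to 11329 genes in all, the most of both without shCr replicate 1. The median log2 fold change of the 10 genes was -0.22 for CrOE against shCon, -0.05 for CrOE against shCr and -0.05 for shCr against shCon EVs, and over all tested genes it was 0.01, 0.01 and 0.00. The number of the 10 called with CrOE against shCr EVs ranged from 6 without shCr replicate 2 to 10 without shCr replicate 1. Those fits called 10110 and 11003 genes in all. The number of the 10 for shCr against shCon EVs was 2 without shCr replicate 1 or 2, where 1396 and 958 genes in all were called.

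The comparisons with untreated cells, on which the set was chosen, share the same 3 untreated libraries. Counted with Atp2a3, whose call the choice of the set fixed, shCon EVs had 4 of 10 genes called (38.1% of all genes), shCr EVs 4 of 10 (37.3%) and CrOE EVs 8 of 10 (73.7%). Of the other 9 genes 3, 3 and 7 were called, and nothing is read from these counts. Itpr1 had log2 fold changes of 0.39, 0.49 and -0.46 in that order, so its sign with CrOE EVs was opposite to that with the others. Itpr2 had 0.34, 0.07 and 1.18, and Atp2a2 had -0.00, -0.04 and 1.62. Stim1 had -0.15, -0.01 and -1.04, and Stim2 -0.08, -0.18 and -1.48. Itpr3 had 0.11, -0.17 and -0.34, while Orai1 stood at 0.06, 0.01 and 0.28, Atp2c1 at -0.13, -0.19 and -0.12, and Atp2a1 at 0.51, 0.74 and -0.15. With Atp2a3 included, the count for shCon EVs was 2 without untreated replicate 2 or shCon replicate 1 or 2, where 5539, 4438 and 4250 genes in all were called. That for shCr EVs was 2 without untreated replicate 1 or shCr replicate 3, where 4429 and 4693 genes in all were called.

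**Figure D2:**
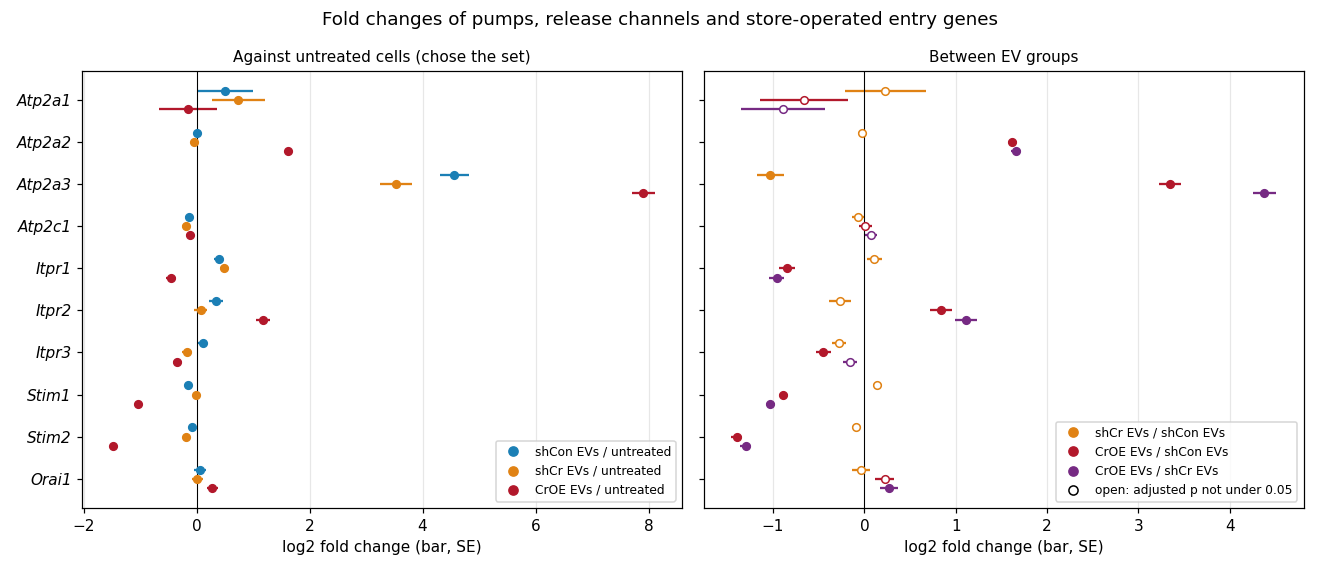
Log2 fold change (points) with its SE (bars) for each gene, against untreated cells at left and between EV groups at right; at right, filled points have an adjusted p under 0.05, and at left no call is marked. At right Atp2a3 lies furthest from 0, at 4.38 for CrOE against shCr EVs, and Stim1 and Stim2 lie left of 0 in the 2 CrOE comparisons. At left Atp2a3 reaches 7.91 for CrOE EVs, over untreated libraries that summed to 9 counts. Its rise there chose the set, so nothing is read from its place in that panel.

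Levels were compared between genes as CPM per kb of exon. In untreated cells the order began with Atp2a2 at 66.6 ± 1.53 and Itpr3 at 32.4 ± 1.51 CPM per kb (SD, n = 3). Atp2c1, Stim2, Orai1 and Stim1 followed between 7.01 and 5.02, of which Stim2 and Orai1, and Orai1 and Stim1, overlapped. Itpr2 and Itpr1 came next at 2.03 and 1.59, also overlapping, and Atp2a1 and Atp2a3 were last at 0.104 and 0.0209. After CrOE EVs Atp2a2 stood at 205 ± 7.37 CPM per kb. By this scale Atp2a3 had moved from last to place 5 at 5.25 ± 0.135, above Itpr2 at 4.60 and both STIM genes at 2.44 and 2.15. The order depends on the length used, here all exons of a gene joined. For Stim1 these came to 10371 bases against 4362 in its longest transcript, and for Itpr1 to 18319 against 9870. Without division by length, Itpr2 was above Atp2a3 with CrOE EVs, at 68.1 against 27.7 CPM. An order by the longest transcript was not computed.

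Within families, the levels per kb gave the make-up of each pool. Atp2a3 was 0.0312 ± 0.0200% of SERCA message in untreated, 0.769 ± 0.0271% in shCon, 0.381 ± 0.0727% in shCr and 2.50 ± 0.150% in CrOE libraries (SD, n = 3 each). Atp2a2 kept 97.2% or more in every library, so the rise of the summed SERCA level, from 67.1 ± 0.574 with shCon to 210.1 ± 7.19 CPM per kb with CrOE EVs, was almost all Atp2a2. Among IP3 receptors, Itpr2 made up 5.64 ± 1.04% in untreated, 6.50 ± 0.198% in shCon, 6.54 ± 1.29% in shCr and 14.6 ± 0.863% in CrOE libraries. Itpr3 had 89.9 ± 1.69%, 88.2 ± 0.231%, 86.6 ± 2.46% and 81.7 ± 0.628% in the same order. The summed IP3 receptor level was 36.0 ± 1.32, 39.6 ± 1.46, 33.1 ± 3.73 and 31.4 ± 1.45 CPM per kb.

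The balance of pumps to release channels and of sensors to Orai1 followed. The SERCA to IP3 receptor ratio was 1.81 to 1.90 in untreated, 1.65 to 1.75 in shCon, 1.85 to 2.25 in shCr and 6.55 to 6.79 in CrOE libraries. Stim1 and Stim2 together, over Orai1, gave 1.81 to 2.33 in untreated, 1.72 to 1.89 in shCon, 1.75 to 2.10 in shCr and 0.637 to 0.736 in CrOE libraries. In both ratios the CrOE libraries lay outside the range of the other 9. The second ratio holds Orai1 alone of the Orai genes. Orai2 was at 94.3 CPM in untreated and 74.4 in shCr libraries, where Orai1 was at 12.6 and 12.7 CPM, none divided by length. Orai2 and Orai3 were called lower with CrOE than shCon EVs (log2 -0.44 and -0.77), so a ratio to all Orai genes could differ. The Stim1 to Stim2 ratio was 0.797 ± 0.0304 with shCon, 0.938 ± 0.0298 with shCr and 1.14 ± 0.0668 with CrOE EVs (SD, n = 3). Undivided by length, Stim1 was above Stim2 in every group, at 46.8 against 29.1 CPM with shCon EVs. Which STIM gene is higher thus depends on the length used. These ratios describe message per exon length and carry no test. Without division by length they were 1.04 for SERCA to IP3 receptor and 5.80 for STIM to Orai1 with shCon EVs, and 3.97 and 2.39 with CrOE EVs, so their size depends on the length used.

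**Figure D3:**
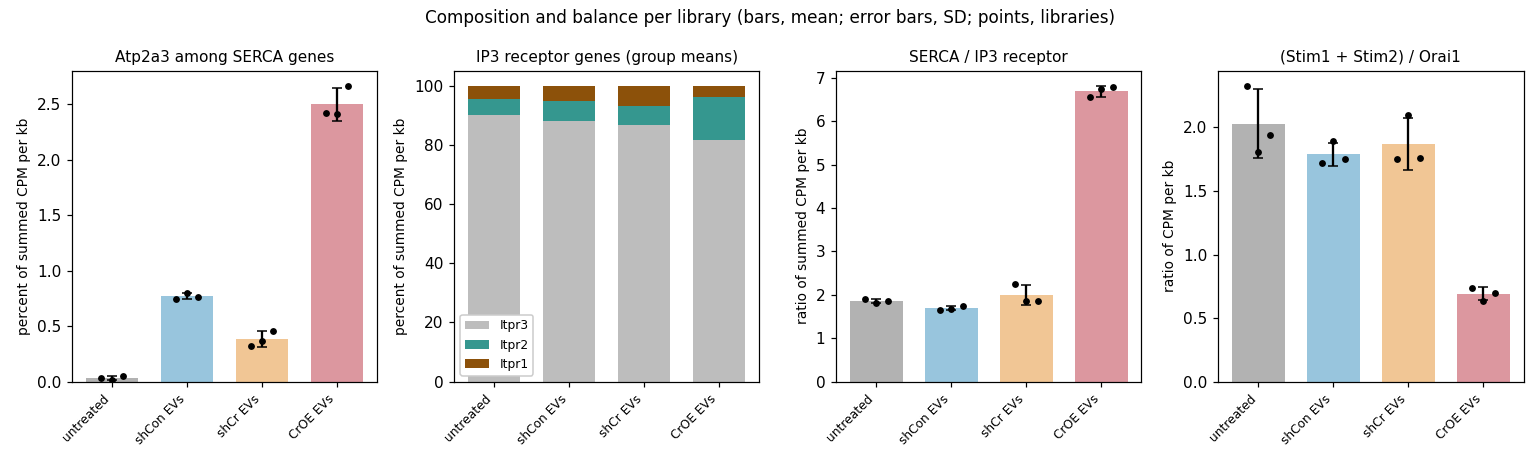
From left, Atp2a3 as a percent of SERCA genes, the 3 IP3 receptor genes as percents of their sum (group means, stacked), the SERCA to IP3 receptor ratio, and the ratio of Stim1 plus Stim2 to Orai1, all from CPM per kb of exon. Bars are means, error bars SD and points libraries. The CrOE libraries reach 6.55 to 6.79 in the pump to receptor ratio and 0.637 to 0.736 in the sensor to Orai1 ratio, outside all other libraries.

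Other calcium-handling genes were taken from 9 lists of 139 genes, of which 113 were tested. With CrOE against shCon EVs 35 were higher, 52 lower and 26 not called, so that 77.0% were called against 72.6% of all genes (36.5% higher, 36.1% lower). For shCr against shCon EVs 7 were higher, 7 lower and 99 not called, or 12.4% called against 8.73% of all genes (5.22% higher, 3.51% lower). Most genes named from the lists are the called ones with the strongest rise or fall. For these an average log2 CPM of at least 1 was required, so genes of lower level could change more.

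Nearest to the pumps were the proteins that bind calcium inside the ER. Of 18 tested, 9 were higher and 6 lower with CrOE than shCon EVs, or 83.3% called against 72.6% of all genes. They had a median log2 fold change of 0.41 against 0.01 over all genes. The higher ones were the chaperones and calcium buffers Hspa5, Hsp90b1, Pdia4, Nucb2, Calr, Pdia3, P4hb, Canx and Nucb1. The lower ones, calcium-binding proteins of the same list, were Hrc, Sepn1, Rcn3, Calu, Srl and Sdf4. Hspa5, encoding the chaperone BiP, was at 11731 ± 347 CPM with CrOE and 604 ± 6.27 CPM with shCon EVs (SD, n = 3; log2 fold change 4.28, adjusted p = 1.6e-13). Sepn1, the selenoprotein N gene, fell, at 68.1 ± 0.753 against 134 ± 3.63 CPM (-0.98, adjusted p = 3.6e-09). The comparison of shCr with shCon EVs called 1 of 18 (5.56%, against 8.73% of all genes), Pdia4, at 152 ± 11.9 against 179 ± 2.90 CPM (-0.23, adjusted p = 0.0326).

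Of 5 tested SERCA regulators, 2 were higher and 3 lower with CrOE than shCon EVs, all 5 called against 72.6% of all genes. Hax1, which binds the SERCA2 and phospholamban complex, rose from 65.0 ± 1.86 to 163 ± 2.93 CPM (log2 1.33, adjusted p = 2.4e-09). The gene 1810037I17Rik fell from 26.8 ± 1.55 to 15.5 ± 0.702 CPM (-0.79, adjusted p = 6.2e-05). Pln and Sln, the muscle SERCA inhibitors, had at most 2 and 0 counts in any library. Among 9 tested other channels and pumps of the ER and Golgi, 3 were higher and 3 lower (66.7% called, against 72.6%). Tmem38b, a cation channel that accompanies calcium release, rose (0.75, adjusted p = 3.3e-06), and Pkd2, polycystin 2, fell (-0.59, adjusted p = 9.6e-06).

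Of 11 tested partners of store-operated entry, 4 were higher and 5 lower with CrOE than shCon EVs (81.8% called, against 72.6% of all genes). Saraf, which turns store-operated entry off, rose from 158 ± 4.60 to 365 ± 17 CPM (log2 1.20, adjusted p = 2.9e-09). Esyt2, a tether between ER and plasma membrane, fell from 252 ± 6.95 to 70.1 ± 3.02 CPM (-1.85, adjusted p = 1.8e-10). Cracr2a, of the same list but under the level required for naming, had a larger called fall (log2 -5.25). The other Orai genes, Orai2 and Orai3, were called lower at -0.44 and -0.77, where Orai1 was not called. Esyt1 was lower with shCr than shCon EVs (-0.33, adjusted p = 0.0130).

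Upstream of the release channels, 9 phospholipase C genes were tested, with 2 higher and 4 lower with CrOE than shCon EVs (66.7% called, against 72.6% of all genes). Plce1 rose from 1.98 ± 0.429 to 7.21 ± 0.397 CPM (log2 1.87, adjusted p = 1.3e-07), and Plcb1 fell from 25.5 ± 1.86 to 4.72 ± 0.609 CPM (-2.43, adjusted p = 1.4e-09). Of 11 IP3 receptor regulators and IP3 enzymes 3 were higher and 5 lower (72.7% called), with Erp44, an ER thioredoxin that binds IP3 receptors, higher (0.46, adjusted p = 0.000785). Mrvi1, which joins IP3 receptors to cGMP-dependent kinase, was at 1.12 ± 0.217 CPM with shCon, 3.01 ± 0.458 with shCr and 0.195 ± 0.0853 with CrOE EVs. It was higher with shCr than shCon EVs (log2 1.43, adjusted p = 0.000697) and lower with CrOE than shCon EVs (-2.48, adjusted p = 4.6e-06). In that list 4 of 11 genes were called with shCr against shCon EVs, all higher (5.22% of all genes were called higher). Plcb1 was higher too (0.38, adjusted p = 0.0471).

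Calcium leaves the cell through plasma membrane pumps and exchangers, of which 9 were tested. With CrOE against shCon EVs 1 was higher and 5 lower (66.7% called, against 72.6% of all genes), with a median of -0.64. Atp2b4, a plasma membrane calcium pump, fell from 17.8 ± 1.17 to 2.29 ± 0.236 CPM (log2 -2.95, adjusted p = 7.9e-11), and the exchanger Slc24a3 rose from 9.16 ± 0.783 to 36.4 ± 1.22 CPM (1.99, adjusted p = 1.2e-10). Atp2b1, another such pump, was higher with shCr than shCon EVs (0.29, adjusted p = 0.0102).

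Of 21 genes for mitochondrial uptake and contacts, 6 were higher and 10 lower with CrOE than shCon EVs (76.2% called, against 72.6% of all genes). Hspa9, a mitochondrial chaperone that links IP3 receptors to the outer membrane channel, rose (log2 0.87, adjusted p = 2.9e-09), and Slc8b1, the mitochondrial sodium-calcium exchanger, fell (-1.21, adjusted p = 1.5e-06). Of 20 genes of calmodulin, calcineurin and NFAT signalling 5 were higher and 11 lower (80.0% called, against 72.6%). Rcan1, a calcineurin regulator and NFAT target, rose from 27.2 ± 1.07 to 101 ± 6.88 CPM (1.90, adjusted p = 2.8e-11), and Camk2a fell from 3.39 ± 0.286 to 0.237 ± 0.105 CPM (-3.82, adjusted p = 4.2e-08). Lower with shCr than shCon EVs were Ccdc109b, a mitochondrial uniporter subunit (-0.60, adjusted p = 0.0211), and Nfatc4 (-0.49, adjusted p = 0.0174), and Camk2a was higher (0.65, adjusted p = 0.0486).

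The 18 list genes named by strongest rise or fall for CrOE against shCon EVs kept their calls in every alternative in which they were tested. Of the 8 named for shCr against shCon EVs, Mrvi1 did so, and the other 7 lost theirs in at least 1. Without shCon replicate 2, for example, the adjusted p was 0.127 for Plcb1, 0.145 for Camk2a, 0.0880 for Pdia4, 0.0559 for Esyt1, 0.0600 for Nfatc4 and 0.0653 for Ccdc109b, and without shCon replicate 3 it was 0.0591 for Atp2b1.

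**Figure D4:**
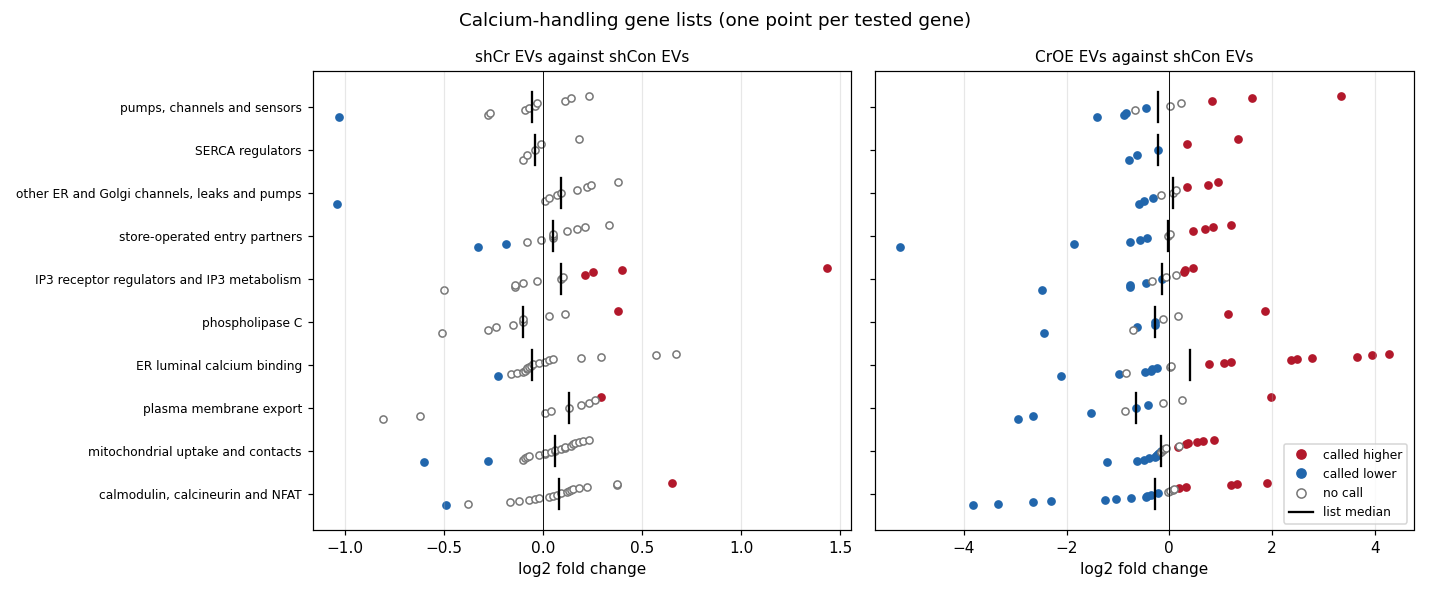
Log2 fold change of each tested gene (points) in the set and the 9 calcium-handling lists, for shCr against shCon EVs at left and CrOE against shCon EVs at right; red and blue points were called, open points were not, and black bars are list medians. At right the ER luminal list has its median at 0.41 and the plasma membrane export list at -0.64.

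The 5 genes whose log2 CPM ran most like that of Atp2a3 over the 12 libraries, among 11556 candidates, were Mthfd2, Dennd4a and Cep162 (Pearson r = 0.988 each), and Sqstm1 and Zfp317 (r = 0.986 each). Mthfd2, a mitochondrial folate enzyme, was at 50.4 ± 2.70 CPM in untreated, 105 ± 3.99 in shCon, 87.1 ± 1.67 in shCr and 198 ± 1.55 in CrOE libraries (SD, n = 3 each). Sqstm1, the autophagy receptor p62, was at 871 ± 55.1, 1659 ± 18.5, 1461 ± 61.7 and 2986 ± 157 CPM in the same order. Both genes kept the order of Atp2a3, which their choice by likeness to it made likely, so nothing is read from it. In all, 188 genes had r above 0.95. The points share 4 group means, with CrOE libraries far from the rest, and none of the 5 was among the 5 first by Spearman's rho.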

How the data were processed

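Poly(A) RNA of 12 libraries of 3T3 cells was sequenced from directional libraries, per the labels' protocols. The deposited values are estimated counts for each gene symbol, unscaled between libraries; 39.8% of them were not whole. The submitters' processing notes name featureCounts and mm39. Versions, annotation and the use of strand are not given in the sources used here. In 27 rows a spreadsheet had turned the symbol into a date, and none was a gene described here.

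Values were rounded. Genes were filtered with filterByExpr, scaled by TMM and tested with edgeR 4.0.16 (R 4.3.3; quasi-likelihood F-test) in 1 model of all 4 groups, with Benjamini-Hochberg adjustment over 14279 genes and a threshold of 0.05. The design had assumed whole counts. CPM used TMM-scaled totals. The fit was tested on simulated data in which few genes changed. Changes as broad as those called with CrOE EVs were not simulated. Lengths and overlaps came from GENCODE M21 gene models of GRCm38, a build other than the one named, matched by symbol. DESeq2 1.42.0, another scaling, other filters, a replicate block, other samples in the fit and leaving out each library were alternatives.

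The genes and lists were chosen with earlier results of these data known. Named genes were the 10, the called gene with the largest rise and fall of each list in each comparison (average log2 CPM of at least 1), and the 5 most like Atp2a3. Other genes named from the lists were picked after their values were seen. They were Orai2, Orai3, Cracr2a, Pln and Sln, with Hsp90b1, Nucb2, Calr, Pdia3, P4hb, Canx, Nucb1, Hrc, Rcn3, Calu, Srl and Sdf4 from the ER luminal list.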

Additional observations from a re-analysis of the deposited data

How the results depend on the processing

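Over 738 alternative values for the 10 genes, 683 stayed on the same side of the threshold with the same sign, 25 lost a call, 12 gained one and 18 changed sign without being a call in either fit; no call reversed. With shCr against shCon EVs, the number of the 10 genes called was 0 when 10 counts were required in every library, since Atp2a3 was then not tested. It was 2 with DESeq2, for which the cause was not tested. These 2 fits called 1213 and 1570 genes in all, against 1247, and a fit of those groups alone, with fewer samples, called 641. With shCr EVs against untreated cells 2 of the 10 were called with no low-count filter, which tests more genes, and 2 in a fit of those groups alone. There 4876 and 3754 genes in all were called, against 5320. Leaving out each library in turn gave 632 to 1396 genes in all and 1 to 2 of the 10 for shCr against shCon EVs. Against untreated cells it gave 4250 to 6789 genes in all and 2 to 5 of the 10 for shCon EVs. For shCr EVs these were 4254 to 6698 and 2 to 5. The counts against untreated cells include Atp2a3, whose call the choice of the set fixed.

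Shares without division by length were 0.669% (shCon) and 2.18% (CrOE) for Atp2a3, 8.54%, 9.73%, 9.62% and 21.2% for Itpr2, and 83.2%, 80.5%, 77.9% and 72.2% for Itpr3 (untreated, shCon, shCr, CrOE). By the longest transcript they were 0.822% and 2.67% for Atp2a3, 6.76%, 7.73% and 17.3% for Itpr2 (untreated, shCon, CrOE) and 85.5%, 83.1%, 80.5% and 76.4% for Itpr3. Length scales for the ratios were chosen after seeing the data: without length, SERCA to IP3 receptor was 1.15, 1.04, 1.20 and 3.97 and STIM to Orai1 was 6.64, 5.80, 6.25 and 2.39, and by the longest transcript the latter was 2.73, 2.38, 2.58 and 0.989.

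Libraries with the same replicate number did not pair: 5 of 18 same-number pairs had a correlation of deviations over 0.1 (range -0.20 to 0.32), and 5 of 12 libraries correlated best with their own number. With the replicate number as a block, 1281 genes were called for shCr against shCon, 10511 for CrOE against shCon and 10677 for CrOE against shCr EVs, and 5691, 5529 and 10657 for shCon, shCr and CrOE EVs against untreated cells. Among the 10 genes the block changed 1 call, that of Orai1 in the F-test over EV groups. This test then called 7 of them and 10887 genes in all, against 10730 without the block. The depth limits Atp2a1 and untreated Atp2a3, which rest on few counts.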
